A study of Mus musculus with 4 samples.

Results

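The scaffold of the mouse sperm tail was followed through 10 genes of the fibrous sheath and the outer dense fibers in sorted spermatocytes of circSRY KO and control mice. These genes were taken by their symbols from the 53700 genes of the deposited table, and all 10 were found and passed the filter on low counts. The circSRY KO libraries are replicates 1 and 2, from C57BL/6 males at 8 wk of age in which a short germline deletion takes out the acceptor site of the back-splice 5' of Sry, with loss of the circular RNA. The control libraries are replicates 2 and 3, from wild-type C57BL/6 males at 8 wk. Cells were sorted as primary spermatocytes by Hoechst staining, and each library is 1 sample of its group.

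The sperm tail is built after meiosis, in elongating spermatids. Outer dense fibers run along the microtubules of the axoneme and stiffen the tail. The fibrous sheath surrounds them in the principal piece, and it holds cAMP-dependent protein kinase (PKA) and glycolytic enzymes beside the axoneme. AKAP3 and AKAP4 are its scaffold proteins. ROPN1, ROPN1L, SPA17 and CABYR carry a domain like the one by which PKA regulatory subunits dock on AKAPs, and FSCB binds CABYR. ODF1 and ODF2 are outer dense fiber proteins. SPEM1 is not a tail scaffold, but in mice it is needed for the removal of cytoplasm from the head and neck of the spermatid.

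Of the 10 genes, 8 were called higher in circSRY KO spermatocytes and 0 lower, where 20.0% of all genes tested were higher and 15.0% were lower. Earlier results of these data were known when the genes were chosen. All 10 had a log2 fold change above 0 in edgeR, DESeq2 and limma. In either direction 35.0% were called. A call needs an FDR under 0.05 (edgeR, quasi-likelihood F test, adjusted by Benjamini and Hochberg over 17766 genes) and a log2 fold change beyond 1 in either direction. The median log2 fold change was 1.96 over the 10 genes and 0.07 over all genes tested. Spem1, Odf1, Akap4, Ropn1, Fscb, Cabyr, Akap3 and Spa17 were higher. Odf2 and Ropn1l were not called, and they were the most abundant of the 10 genes in control. The summed expression of the 10 genes was 10316 and 10786 TPM (transcript abundance, corrected for length and scaled to the same total in each library) in circSRY KO replicates 1 and 2, against 4706 and 5855 TPM in control replicates 2 and 3. Both circSRY KO sums lay above both control sums. For 9 of the 10 genes both circSRY KO libraries were above both control libraries by TPM, as for 29.5% of all genes tested. Without control replicate 2, 5 of the 10 genes were higher, and so were 6.48% of all genes tested in that fit. With 2 libraries against 2, an exact two-sided permutation test of a single value cannot give a p below 0.333, so every call draws on the variation of all genes in the edgeR fit.

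**Figure D1:**
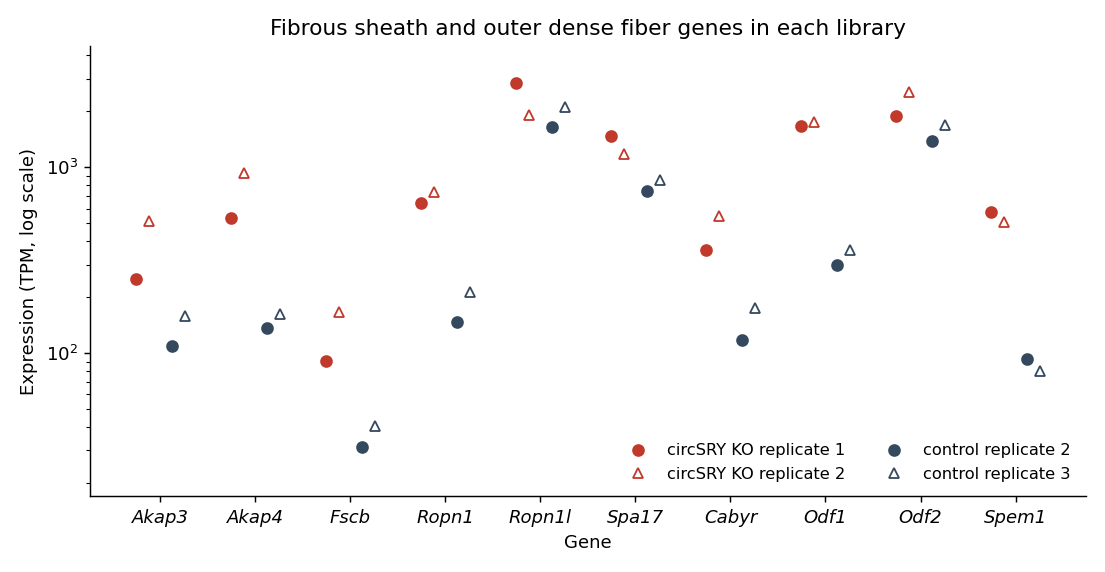
Expression of the 10 genes in each library, in TPM on a log axis, with circSRY KO libraries (red) left of control libraries (blue) and 1 point per library. For 9 genes both circSRY KO points lie above both control points, and for Ropn1l they overlap.

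The libraries themselves set the frame for these values. They held 8839461 and 8191397 expected counts in circSRY KO replicates 1 and 2, against 8045148 and 8422943 in control replicates 2 and 3. Markers of meiotic spermatocytes were present in every library, but 8 of 10 were lower in circSRY KO, with a summed expression of 686 and 540 TPM against 2972 and 2183 TPM in control. All 9 markers of round spermatids were higher, with 1518 and 2094 TPM against 571 and 781 TPM in control, and all 8 markers of elongating spermatids were higher, with 48472 and 38844 TPM against 7859 and 7444 TPM in control. All 8 leukocyte markers were higher, with 431 and 323 TPM in circSRY KO against 25.6 and 19.7 TPM in control, and so were all 6 stroma markers, with 296 and 364 TPM against 73.7 and 50.9 TPM in control. All 7 tested Sertoli cell markers were higher, with 106 and 227 TPM for the list in circSRY KO against 28.4 and 16.4 TPM in control, and Rhox5 of the same list was too low to be tested. All 6 Leydig cell markers were lower, with 679 and 616 TPM in circSRY KO against 1882 and 1590 TPM in control, and of 6 spermatogonia markers 2 were higher. Except for Rhox5 in control replicate 3, no marker was at 0 in any library. The sort gate was set for primary spermatocytes. In bulk RNA a change in the number of cells of a type and a change of RNA per cell cannot be told apart. The part of these marker changes in the values of the tail genes was not tested. Sry had an expected count of 0 in 4 of 4 libraries, which does not check the genotype because the kit selects polyadenylated RNA and a circular RNA has no poly(A) tail.

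**Figure D2:**
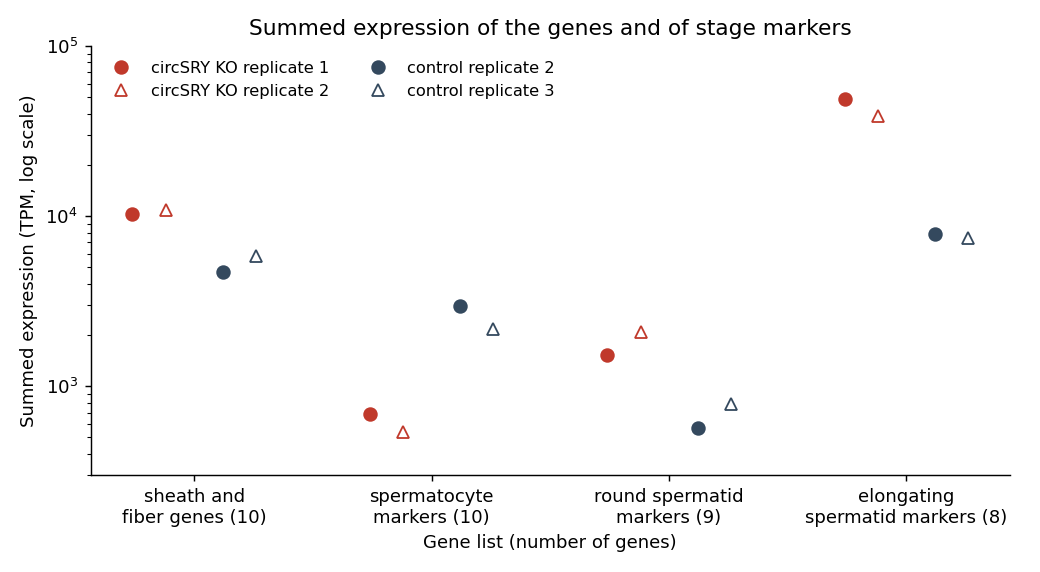
Summed expression in TPM, on a log axis, of the 10 sheath and fiber genes and of 3 marker lists, with circSRY KO libraries (red) left of control libraries (blue). In circSRY KO the sums were higher for the sheath and fiber genes and for round and elongating spermatid markers, and lower for spermatocyte markers.

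The scaffold genes Akap3 and Akap4 were both higher in circSRY KO. Akap4 (ENSMUSG00000050089), the gene of the most abundant fibrous sheath protein, is the X-linked gene among the 10. It lies at chrX:6933758-6944850 on the plus strand of GRCm39, and its canonical transcript has 6 exons. It had 536 and 932 TPM in circSRY KO replicates 1 and 2, against 137 and 163 TPM in control replicates 2 and 3. The lower circSRY KO library was above both control libraries by more than the controls differed. The log2 fold change was 2.49 (standard error 0.377, edgeR adjusted p = 0.000303), and 3.87% of all genes tested had a higher one.

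Akap3 (ENSMUSG00000030344, chr6:126830055-126851271, plus strand of GRCm39) encodes the scaffold that enters the forming sheath before AKAP4. It had 251 and 513 TPM in circSRY KO replicates 1 and 2, and 109.9 and 159 TPM in control replicates 2 and 3. The groups did not overlap, but the circSRY KO libraries differed by a factor of 2.05. The log2 fold change was 1.67 (standard error 0.389, edgeR adjusted p = 0.00434). Akap3 was not called without control replicate 2, where its log2 fold change was 1.34 (adjusted p = 0.0965 by edgeR, against 1.54e-08 to 0.0990 over all 16 alternatives). The ratio of Akap4 to Akap3 was 2.14 and 1.82 in circSRY KO, against 1.25 and 1.02 in control (exact permutation p = 0.333, the smallest that this design allows).

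The promoters of these scaffold genes shared a stretch of sequence. RefSeq promoter sequences on GRCm38.p6, from 250 bases before to 50 bases after the start, were found for 8 of the 10 genes. The set of promoters at hand held 0 for Odf1 and Cabyr. For a gene with several starts the most upstream start was taken for shared runs, CpG and TGATGTCA. The other motifs were searched at every start of a gene. Their shares of all genes thus rest on another set of promoters than that of TGATGTCA. The longest run shared by any pair among 28 pairs was 20 bases, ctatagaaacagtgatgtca, in Akap3 and Akap4, and it was found in 2 of 27025 genes, these same genes. It ends in TGATGTCA, which differs from the cAMP response element TGACGTCA at 1 base. The next longest run on the same strand was 12 bases. All 3 genes that hold TGATGTCA were higher, but so were Ropn1, Spa17 and Spem1, whose promoters do not hold it. The 80 bases before the start are shown for these 3 holders, because they are also the 3 genes with promoters free of CpG. The letters TGATGTCA are in capitals, and coordinates are on GRCm38.p6.
Akap3, chr6:126853018-126853097, plus strand: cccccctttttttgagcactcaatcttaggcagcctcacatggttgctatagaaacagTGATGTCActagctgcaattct
Akap4, chrX:7067435-7067514, plus strand: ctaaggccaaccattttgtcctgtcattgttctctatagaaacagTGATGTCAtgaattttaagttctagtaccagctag
Fscb, chr12:64474899-64474978, minus strand: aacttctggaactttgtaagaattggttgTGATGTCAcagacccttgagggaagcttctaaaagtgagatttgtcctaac
TGATGTCA was searched on both strands after these sequences had been seen, so its count is a description of a pattern noticed in them. Within these 80 bases it was in 3 of the 8 promoters and in 1.77% of all genes, and within the 300 bases in 3.74% of all genes. The exact cAMP response element TGACGTCA was in 0 of the 8 promoters and in 2.03% of all genes, and TATAAA or TTTATA was in 0 of the 8 and in 15.7% of all genes. A match is a description of letters and not a bound site.

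Of the 5 genes whose proteins dock on AKAPs or bind CABYR, Ropn1, Fscb, Cabyr and Spa17 were higher and Ropn1l was not called. Ropn1 (ENSMUSG00000022832, chr16:34470269-34498988, plus strand of GRCm39), the gene of ropporin, had 640 and 736 TPM in circSRY KO replicates 1 and 2, against 148 and 214 TPM in control replicates 2 and 3. The circSRY KO libraries were close to each other and well above control. Its log2 fold change was 2.22 (standard error 0.348, edgeR adjusted p = 0.000366).

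Fscb (ENSMUSG00000043060, chr12:64518104-64521464, minus strand, 1 exon) was the least abundant of the 10 genes. It had 90.5 and 166 TPM in circSRY KO replicates 1 and 2, and 31.4 and 40.3 TPM in control replicates 2 and 3. The groups did not overlap, with 2.03 for the log2 fold change (standard error 0.349, edgeR adjusted p = 0.000646).

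Cabyr (ENSMUSG00000024430, chromosome 18 of GRCm39 from 12873379 to 12888317), which encodes a calcium-binding protein of the sheath that is tyrosine-phosphorylated as sperm mature, had 358 and 548 TPM in circSRY KO replicates 1 and 2. Its control replicates 2 and 3 had 117 and 175 TPM. Both circSRY KO values were above both control values, and the log2 fold change was 1.90 (standard error 0.349, edgeR adjusted p = 0.000978). Without control replicate 2 the log2 fold change of Cabyr was 1.58 and it was not called (adjusted p = 0.0547 by edgeR, in a range of 6.29e-10 to 0.0547 over all 16 alternatives).

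Spa17 (ENSMUSG00000001948, chr9:37513599-37525027, minus strand), which encodes sperm autoantigenic protein 17, had 1476 and 1173 TPM in circSRY KO replicates 1 and 2, and 746 and 854 TPM in control replicates 2 and 3. The groups did not overlap, but its log2 fold change of 1.03 (standard error 0.344, edgeR adjusted p = 0.0282) was just past the threshold. It lost its call in 8 of the 16 alternatives, over which the log2 fold change was 0.69 or more and the adjusted p 0.000192 to 0.309. Among these were the fits without control replicate 2 (0.88), without control replicate 3 (1.14), where the adjusted p was 0.143 by edgeR, and without circSRY KO replicate 1 (0.69).

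Ropn1l (ENSMUSG00000022236, chr15:31441355-31453883, minus strand), the gene of the ropporin-like protein, was the most abundant of the 10 genes in control. It had 2851 and 1920 TPM in circSRY KO replicates 1 and 2, against 1639 and 2119 TPM in control replicates 2 and 3. The groups overlapped, since circSRY KO replicate 2 lay below control replicate 3. The log2 fold change was 0.64 with a 95% interval of -0.19 to 1.48 (standard error 0.391, edgeR adjusted p = 0.206). The threshold of 1 lies within this interval, and without circSRY KO replicate 2 Ropn1l was called at 1.01 (adjusted p = 0.0157 by edgeR, in a range of 0.0157 to 0.775 over all 16 alternatives). The paralogs thus differed within each library, with 0.224 and 0.384 times as much Ropn1 as Ropn1l in circSRY KO against 0.0901 and 0.101 times in control (exact permutation p = 0.333, the smallest that this design allows).

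The pair of outer dense fiber genes differed in the same way. Odf1 (ENSMUSG00000061923, chr15:38219447-38226979, plus strand, 2 exons) encodes a cysteine-rich protein that in mice is needed to keep head and tail joined. It had 1663 and 1743 TPM in circSRY KO replicates 1 and 2, against 298 and 361 TPM in control replicates 2 and 3. The libraries of each group were close together and the groups far apart, and the log2 fold change came to 2.63 (standard error 0.364, edgeR adjusted p = 0.000174). Among all genes of the table Odf1 ranked 53rd and 37th by TPM in circSRY KO replicates 1 and 2, and 549th and 453rd in control replicates 2 and 3.

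Odf2 (ENSMUSG00000026790, chr2:29778780-29822068, plus strand, 17 exons) encodes a protein of the fibers and, in other cells, of the centrosome. It had 1879 and 2547 TPM in circSRY KO replicates 1 and 2, against 1386 and 1690 TPM in control replicates 2 and 3. Both circSRY KO values were above both control values, but the nearest libraries of the groups were closer than the controls were to each other. The log2 fold change was 0.77 with a 95% interval of -0.04 to 1.57 (standard error 0.379, edgeR adjusted p = 0.122). It was not called in any of the 16 alternatives, where its adjusted p was 0.0415 to 0.489 and its log2 fold change 0.52 to 0.98. The values are per gene, so the fiber and centrosomal isoforms of Odf2 were not separated. The ratio of Odf1 to Odf2 was 0.885 and 0.684 in circSRY KO, against 0.215 and 0.214 in control (exact permutation p = 0.333, the smallest that this design allows).

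Spem1 (ENSMUSG00000041165, chr11:69711693-69713006, minus strand, 3 exons) had the highest log2 fold change of the 10 genes. It had 573 and 507 TPM in circSRY KO replicates 1 and 2, against 93.0 and 80.7 TPM in control replicates 2 and 3. The difference between the groups was far larger than that within either. The log2 fold change was 2.92 (standard error 0.344, edgeR adjusted p = 6.3e-05), and 2.03% of all genes tested had a higher one. Of 3 related genes listed, Spem2, a paralog of Spem1, was higher at 2.21 (edgeR adjusted p = 0.000223), and 2 were not called. These were named after their values were seen. Ubqln1 and Ranbp17, whose proteins bind SPEM1, had log2 fold changes of 0.12 and -0.62.

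**Figure D3:**
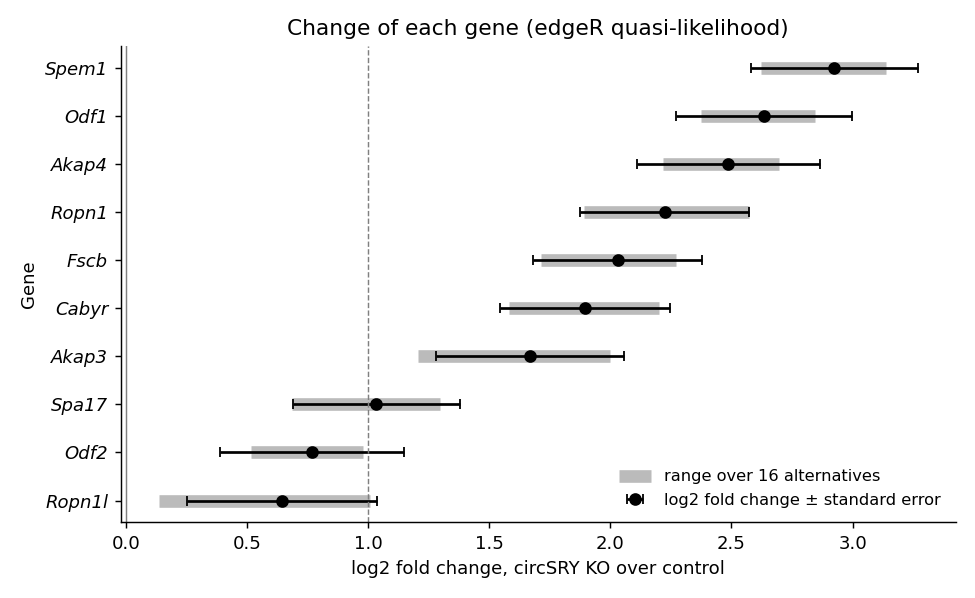
Log2 fold change of circSRY KO over control for each gene, with its standard error (black) and the range over 16 alternative fits (grey). The values run from 0.64 for Ropn1l to 2.92 for Spem1, and only Spa17, Odf2 and Ropn1l have ranges that reach below the dashed line at 1.

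By level in control the genes made 2 tiers, parted at 500 TPM after the values were seen. Ropn1l, Odf2 and Spa17 averaged 1879, 1538 and 799.8 TPM in control, and the other 7 genes 35.8 to 329 TPM. The neighbours Ropn1, Akap4, Cabyr and Akap3, at 181, 150.1, 146 and 134 TPM, overlapped between the control libraries, as did Ropn1l and Odf2. In circSRY KO the order of the means was Ropn1l with 2385 TPM, Odf2 with 2213 TPM, Odf1 with 1703 TPM, Spa17 with 1325 TPM and Akap4 with 734 TPM, followed by Ropn1, Spem1, Cabyr, Akap3 and Fscb. There the libraries of Ropn1l and Odf2 overlapped, as did those of Akap4 and Ropn1, of Spem1 and Cabyr, and of Cabyr and Akap3. Akap4 also overlapped Spem1 and Cabyr, and Akap3 overlapped Spem1. Odf1 lay between Odf2 and Spa17 without overlap. The 3 genes of the high tier made up 60.2% and 52.3% of the summed expression of the 10 genes in circSRY KO, against 80.1% and 79.6% in control. Their own sum was 6205 and 5640 TPM in circSRY KO against 3771 and 4663 TPM in control, while the sum of the other 7 was 4111 and 5146 TPM in circSRY KO against 934 and 1193 TPM in control. Across the 10 genes the log2 fold change had a Spearman correlation of -0.576 with the control mean. It is given as a description, since the genes share the same libraries and the control level enters both measures.

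**Figure D4:**
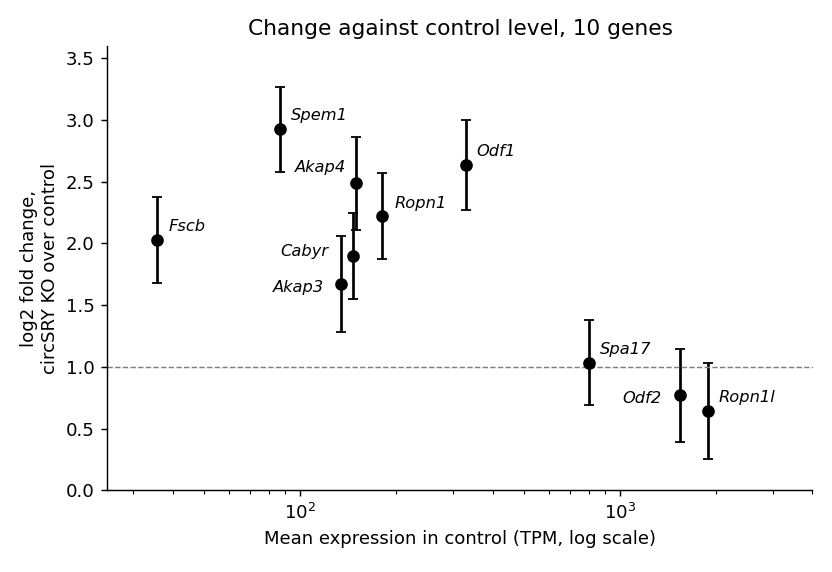
Log2 fold change of circSRY KO over control, with its standard error, against the mean expression in control in TPM on a log axis, 1 point per gene. Spa17, Odf2 and Ropn1l stand apart at high control level with log2 fold changes of 1.03, 0.77 and 0.64.

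Among the 8 promoters read, those of the same 3 genes stood apart by their CpG. The 80 bases before the start are shown for them, from RefSeq on GRCm38.p6, with each CpG in capitals, because they are the genes with the most CpG among the 8 whose promoters were read. Coordinates are on that build.
Odf2, chr2:29889640-29889719, plus strand: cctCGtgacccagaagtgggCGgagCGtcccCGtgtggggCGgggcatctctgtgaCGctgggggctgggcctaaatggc
Ropn1l, chr15:31453690-31453769, minus strand: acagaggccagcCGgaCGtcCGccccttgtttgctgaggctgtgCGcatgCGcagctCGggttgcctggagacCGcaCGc
Spa17, chr9:37613722-37613801, minus strand: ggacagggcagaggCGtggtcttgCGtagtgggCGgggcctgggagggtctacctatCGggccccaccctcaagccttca
Over the 300 bases of the table these promoters held 26, 22 and 24 CpG for Odf2, Ropn1l and Spa17. The promoters of Akap3, Akap4 and Fscb held 0 CpG and those of Ropn1 and Spem1 held 2 each. The median of all genes was 7, with quartiles of 3 and 20. Within the 80 bases, 40.8% of all genes held at least 4 CpG and 42.0% at most 1, so both kinds are common. The GC box CCGCCC or its complement GGGCGG was in the promoters of Odf2, Ropn1l and Spa17, that is in 3 of the 8, and in 38.2% of all genes. GTTGCC or GGCAAC, part of the X-box that RFX factors bind, was in Ropn1l and Spem1 and in 14.1% of all genes. TGACG or CGTCA, a shorter form of the cAMP response element, was in Odf2 and in 23.1% of all genes.

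The 10 genes were also set against markers of elongating spermatids in the same library. Per 1000 TPM of summed elongating spermatid markers, Spem1 had 11.8 and 13.0 TPM in circSRY KO replicates 1 and 2, against 11.8 and 10.8 TPM in control replicates 2 and 3. On the same scale Odf1 had 34.3 and 44.9 TPM in circSRY KO against 37.9 and 48.5 TPM in control. Akap4 had 11.1 and 24.0 TPM in circSRY KO against 17.5 and 21.9 TPM in control. The groups overlapped for all 3 of these genes. Odf2 had 38.8 and 65.6 TPM per 1000 TPM of the markers in circSRY KO against 176 and 227 TPM in control. Ropn1l had 58.8 and 49.4 TPM in circSRY KO against 209 and 285 TPM in control, and Spa17 had 30.5 and 30.2 TPM in circSRY KO against 94.9 and 115 TPM in control. For these 3 genes the circSRY KO libraries were below both control libraries. The mean sum of the markers was itself 5.71 times that of control, so a gene that rose by less comes out lower here. By TPM the circSRY KO means of Odf2, Ropn1l and Spa17 were 1.44, 1.27 and 1.66 times those of control. Fscb and Ropn1 overlapped on this scale, and Akap3 and Cabyr were below both control libraries in circSRY KO, Akap3 with 5.17 and 13.2 TPM in circSRY KO against 14.0 and 21.3 TPM in control. Per 1000 TPM of round spermatid markers, Akap3 had 165 and 245 TPM in circSRY KO against 192 and 203 TPM in control, an overlap, and Odf1 had 1096 and 833 TPM in circSRY KO against 522 and 462 TPM in control, with no overlap. On this second scale the circSRY KO libraries were also above both control libraries for Akap4, Fscb, Ropn1, Spem1 and Cabyr, and below both for Ropn1l, Spa17 and Odf2. Cabyr thus turned direction between the scales, but the gaps between the nearest libraries of the groups were small on both. Per 1000 TPM of round spermatid markers Cabyr had 236 and 262 TPM in circSRY KO against 205 and 224 TPM in control. Per 1000 TPM of elongating spermatid markers it had 7.39 and 14.1 TPM in circSRY KO against 14.9 and 23.5 TPM in control. An exact permutation test over these libraries cannot give a p below 0.333 for any such ratio. The share of all genes whose groups did not overlap on either scale was not computed. By plain TPM both circSRY KO libraries were above both control libraries for 29.5% of all genes tested, and below both for 38.8%. The mean sum of the round spermatid markers was itself 2.67 times that of control.

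A list of 16 further genes was also read, of which 15 were tested, and not all of them encode parts of the sheath or the fibers. Of the 15 tested, 10 were higher, 1 was lower and 4 were not called, with a median log2 fold change of 1.52. The shares over all genes tested were 20.0% higher and 15.0% lower. The 4 with the smallest adjusted p were Spatc1, which encodes the centrosomal protein speriolin, at 2.54, Odf3b at 3.15, Oaz3, the ornithine decarboxylase antizyme of spermatids, at 2.39 and Gapdhs, the glycolytic enzyme of the sheath, at 2.44. Spatc1 had 88.7 and 106.9 TPM in circSRY KO replicates 1 and 2, against 22.0 and 18.0 TPM in control replicates 2 and 3. Gapdhs had 1822 and 1494 TPM in circSRY KO replicates 1 and 2, against 288 and 322 TPM in control replicates 2 and 3. Oaz3 had 1393 and 1232 TPM in circSRY KO against 275 and 266 TPM in control. The groups were far apart for all of these, and Oaz3 and Gapdhs had levels near those of Odf1. Rhpn1, which encodes a binding partner of ropporin, was lower, with 28.1 and 22.8 TPM in circSRY KO against 40.2 and 50.8 TPM in control, or -1.08 on the log2 scale (edgeR adjusted p = 0.0142). In 6 of the 16 alternatives 0 genes of the list were lower, among them the fits without control replicate 2, control replicate 3 or circSRY KO replicate 2. The genes that were not called, named after their values were seen, were Fsip2 at 0.23, Odf4 at 0.40, Ccdc42 at 0.53 and Odf2l, a paralog of Odf2, at -0.93. Odf3l2 had a count of 0 in every library, so that its level could be up to 0.339 to 0.373 CPM (counts per total of the library), by counting error alone. Fewer genes of the list were higher without control replicate 2, as was so over all genes tested.

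Among the 6 PKA subunit genes, whose proteins the AKAPs hold, 2 were higher and 0 were lower, with a median log2 fold change of 0.02. Of all genes tested, 20.0% were higher and 15.0% were lower. Prkar2a, the gene of the type II regulatory subunit that docks on AKAPs, had 157 and 167 TPM in circSRY KO replicates 1 and 2, against 29.7 and 19.9 TPM in control replicates 2 and 3. The groups were far apart, and Prkar2a had a log2 fold change of 2.50 (standard error 0.329, edgeR adjusted p = 0.000122). Prkar1b was called at 1.39 (edgeR adjusted p = 0.0219), but its levels were low and overlapped, with 5.89 and 8.38 TPM in circSRY KO against 2.64 and 7.01 TPM in control. Fewer of these genes were higher without control replicate 2, as was so over all genes tested. Named after their values were seen, Prkar1a and Prkaca had log2 fold changes of -0.03 and -0.01, with 95% intervals of -0.71 to 0.65 and -0.68 to 0.66. Prkacb and Prkar2b were at -0.78 and 0.04. At an unadjusted p under 0.05 in edgeR 0 of the 6 were lower, and 0 were called lower by DESeq2 or limma, but 1 was without circSRY KO replicate 2. There was 1.47 and 1.64 times as much Prkar2a as Prkar1a in circSRY KO, against 0.221 and 0.157 times in control (exact permutation p = 0.333, the smallest that this design allows).

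The circSRY KO libraries differed from each other along transcript length. Replicate 2 had more TPM than replicate 1 for the 4 genes with canonical transcripts over 2 kb, by a factor of 2.05 for Akap3, 1.83 for Fscb, 1.74 for Akap4 and 1.36 for Odf2. Among the shorter ones the factor was 1.53 for Cabyr, 1.15 for Ropn1 and 1.05 for Odf1, and replicate 2 was lower for Spem1, Spa17 and Ropn1l, at 0.885, 0.795 and 0.674. Over all genes tested with a mean of at least 10 TPM, the median log2 ratio of replicate 2 to replicate 1 was -0.26 for 1326 genes under 1 kb, -0.11 for 2116 genes of 1 to 2 kb, 0.23 for 3251 genes of 2 to 4 kb and 0.59 for 2887 genes over 4 kb. In the same classes the median log2 fold change of circSRY KO over control was 0.65, 0.14, -0.20 and -0.41. Across the 10 genes the ratio had a Spearman correlation of 0.648 with length, which is a description of this pair of libraries. With an offset for the effective length of each gene in each library, 7 of the 10 genes were higher and Spa17 was not. Of all genes tested, 16.5% were higher with this offset. This fit was added after the data were examined. TPM is already divided by the same effective length, so the offset cannot take out the trend seen in TPM.

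**Figure D5:**
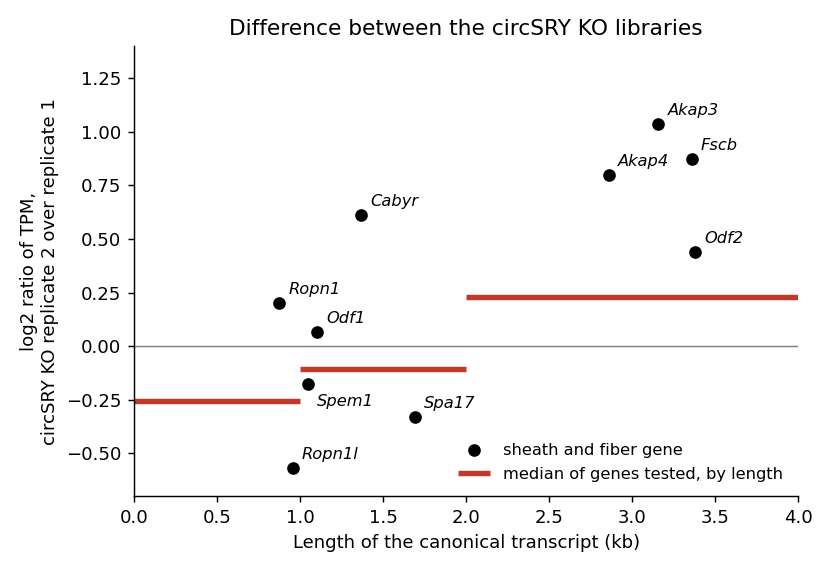
Log2 ratio of TPM in circSRY KO replicate 2 over replicate 1 against canonical transcript length in kb, 1 point per gene, with the median of all genes tested in each length class (red lines). The 4 genes over 2 kb lie above the red line of their class.

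Read assignment sets a further limit. All 10 genes had whole expected counts in every library, within 0.005, so no split of reads with other genes showed as a fraction. Akap3, Ropn1, Ropn1l, Spa17, Cabyr and Odf2 overlap other annotated genes, among them Siae on the other strand of Spa17 and Osbpl1a on that of Cabyr. The kit does not mark the strand, so reads from the shared stretches cannot be told apart. Akap4, Fscb, Odf1 and Spem1 overlap no other gene of the annotation.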

How the data were processed

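Reads of 4 libraries were aligned by the authors to GRCm39 with STAR 2.7.0f and counted with RSEM 1.3.2, with an annotation release not given in the sources used here. In the submitters' notes mm9 is also listed. Unnormalized estimates per gene, the deposited expected counts came from the authors' RSEM run. The deposited TPM are the authors' values scaled to a fixed sum per library, and the deposited FPKM, not used here, come from the same run. The authors' 4 tables of fold changes and p-values were not used.

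Rounded expected counts entered edgeR 4.0.16 under R 4.3.3 (filterByExpr, TMM, quasi-likelihood test, Benjamini-Hochberg over 17766 genes). Standard errors are the log2 fold change over the root of its F statistic. Fits were tested on simulated data, where limma on log2(TPM + 1) made more false calls than its nominal rate. The simulated libraries had less spread and fewer changed genes than these data, so they do not give the error rates of the fits here. Alternatives used limma 3.58.1 and DESeq2 1.42.0. Replicates of a group differed by more than counting noise (chi-square per gene 39.9 in circSRY KO and 12.6 in control). Nothing in the labels says that samples came from separate mice, so p-values measure the spread between samples, which the study describes as mice. Positions are from GENCODE M39 on GRCm39. The genes and lists were chosen with earlier results of these data known. All 10 genes are named. Of each further list up to 4 called genes by adjusted p, and any called the other way, are named.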

Additional observations from a re-analysis of the deposited data

How the results depend on the processing

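All 10 genes had a positive log2 fold change in each of 15 alternative fits and in 1 added after the data were examined, and 0 were called lower in any. The number called higher was 7 or 8 except with limma on log2(TPM + 1) without a filter, where it was 4, and over the fits that left out 1 library, where it ranged from 5 to 9. Akap4, Ropn1, Odf1 and Spem1 kept their call in all 16 alternatives. Akap3 and Cabyr lost it in 2 alternatives each, Fscb in 1 and Spa17 in 8, Ropn1l gained a call in 1, and Odf2 was called in none. Over all genes, 3551 were higher and 2671 lower, against 1939, 1759 and 865 higher with limma on log2(TPM + 1), on log2(TPM + 0.1) and on log2(TPM + 1) without a filter, the last with 1002 lower. These fits tested 17766, 18615, 18615 and 30525 genes, of which 20.0%, 10.4%, 9.45% and 2.83% were higher. The fall to 4 of the 10 genes thus came with a fall over all genes. The share over all genes was also lower without control replicate 2, as given above. Leaving out 1 library gave 1232 to 4127 higher and 952 to 3368 lower. Higher genes made up 57.1% of calls, against 69.2% with upper-quartile scaling and 43.8%, 43.6% and 46.3% in the limma fits in that order. The median over all genes, 0.07 on the log2 scale, was -0.12 with limma on log2(TPM + 1) and 0.28 after upper-quartile scaling, while that of the 10 genes was 1.69 and 2.17 there. The cause of these differences was not tested. No paired analysis was possible because the groups share only 1 replicate number. With 2 libraries per group, depth was not the limit for these genes, whose counts were 358 or more in every library.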
